A study of Homo sapiens with 12 samples.

Results

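Genes of the bone morphogenetic protein (BMP) pathway were examined in AGS cells treated with mycophenolic acid (MPA): the ligand BMP4, the receptors BMPR1A and BMPR2, the signal carriers SMAD1 and SMAD5, the inhibitor SMAD6 and the target genes ID1, ID2, ID3 and ID4. Their probes were found by gene name in the annotation of the array, old or current. Of 48803 probes on the array, 15 were named for these genes. They covered 9 of the 10 genes, and BMPR1A was not analysed here. Signal was detected for 10 of the 15 probes, in 6 genes: BMPR2, SMAD5, SMAD6, ID1, ID2 and ID3. The brightest probe of each of these 6 genes was detected on all 12 arrays.

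AGS is a human gastric adenocarcinoma cell line, and MPA inhibits IMPDH, the enzyme that makes guanine nucleotides from inosine monophosphate. RNA was profiled on Illumina HumanHT-12 arrays from 4 samples of AGS cells at 0 h, without MPA, and from pairs of samples (n = 2) exposed to 2 µg/ml MPA for 12, 24, 48 or 72 h. The arrays of a group are numbered as replicates, with no statement that they came from separate cultures, so their spread may be technical. Time-matched cells without MPA are not among the samples, and the effect of the drug cannot be told apart from that of time in culture. All 12 arrays come from 1 cell line.

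BMP ligands bind a pair of type I and type II serine/threonine kinase receptors on the cell surface. BMPR2 is a type II receptor, and BMPR1A is a type I receptor. The activated type I receptor phosphorylates SMAD1, SMAD5 and SMAD9, which join SMAD4, enter the nucleus and switch on target genes. The ID genes are direct targets, and their proteins bind E proteins such as TCF3 and keep them from DNA. SMAD6 is also a target, and its product blocks the receptors and SMAD1, which closes a feedback loop. In the stomach and gut, BMP signals are known to restrain growth and favour differentiation of the epithelium.

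The 5 genes BMPR2, SMAD6, ID1, ID2 and ID3 were lower after MPA, and SMAD5 was slightly higher. BMPR2 was lowest at 12 h, 3.21-fold below 0 h, and came part of the way back by 72 h. SMAD6 fell from 12 h on and reached 4.19-fold below 0 h at 72 h, a size that depends on the background correction. ID3 was not called at 12 h, was lower from 24 h on and was 3.49-fold below 0 h at 72 h. By their brightest probes, ID1 reached 2.48-fold below 0 h at 72 h, and ID2 was lowest at 24 h. The other ID2 probe was lowest at 72 h. In bulk RNA, a smaller number of expressing cells and less RNA in each cell cannot be told apart.

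The ID genes and SMAD6 are the targets on which these results turn, so the bases just before their start sites are shown, as RefSeq gives them for GRCh38.p14 (the array files name no genome build). Each run is the 250 bases 5' of the start site of the gene, 5' to 3' on the strand of the gene. Capitals mark matches on either strand to sequences that BMP-activated SMADs are known to bind: the GC-rich palindrome GGCGCC, its variant GGAGCC (reverse GGCTCC) and the SMAD box GTCT (reverse AGAC).
SMAD6, chr15:66701986-66702235, plus strand: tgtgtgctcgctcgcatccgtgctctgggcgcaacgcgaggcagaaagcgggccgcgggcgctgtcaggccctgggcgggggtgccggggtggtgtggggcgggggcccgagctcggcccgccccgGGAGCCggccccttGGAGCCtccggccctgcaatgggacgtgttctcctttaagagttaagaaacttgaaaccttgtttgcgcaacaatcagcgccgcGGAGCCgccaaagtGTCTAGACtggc
ID1, chr20:31605039-31605288, plus strand: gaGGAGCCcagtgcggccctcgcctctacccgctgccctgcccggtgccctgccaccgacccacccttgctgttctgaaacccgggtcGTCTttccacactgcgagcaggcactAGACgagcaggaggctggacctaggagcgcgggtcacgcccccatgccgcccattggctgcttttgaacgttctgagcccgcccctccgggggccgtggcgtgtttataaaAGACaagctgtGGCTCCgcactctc
ID2, chr2:8681806-8682055, plus strand: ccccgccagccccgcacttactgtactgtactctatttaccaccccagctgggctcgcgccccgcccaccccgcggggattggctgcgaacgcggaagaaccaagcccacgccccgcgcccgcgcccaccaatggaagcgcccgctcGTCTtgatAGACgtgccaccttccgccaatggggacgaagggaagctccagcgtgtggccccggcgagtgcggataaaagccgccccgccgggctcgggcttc
ID3, chr1:23559502-23559751, minus strand: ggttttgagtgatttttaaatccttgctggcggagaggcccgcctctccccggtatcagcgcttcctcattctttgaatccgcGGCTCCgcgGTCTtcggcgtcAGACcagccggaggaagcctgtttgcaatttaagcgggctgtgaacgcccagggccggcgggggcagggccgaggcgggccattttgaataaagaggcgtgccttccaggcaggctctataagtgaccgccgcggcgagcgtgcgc
The GGAGCC variant occurred 3 times before SMAD6, 2 times before ID1, 1 time before ID3 and 0 times before ID2. The SMAD box occurred 2 times before SMAD6, 3 times before ID1 and 2 times before each of ID2 and ID3. None of the 4 held GGCGCC. Among 35116 RefSeq promoters of the same length, 16.4% held GGCGCC, 30.6% held GGAGCC and 77.5% held the SMAD box. A match is only a run of letters, and the BMP response element known for ID1 lies further upstream than this window. In the same annotation, SMAD6 lies at chr15:66702236-66782849, ID1 at chr20:31605289-31606510, ID2 at chr2:8682056-8684461 and ID3 at chr1:23557926-23559501.

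Values are given on the log2 scale after background correction and quantile normalization, so a difference of 1 is a 2-fold difference in corrected signal to which an offset of 16 was added. Signals of different probes cannot be set against each other. A probe counted as detected on an array where its detection p was under 0.01. Each gene was represented by its brightest probe among those detected on at least 2 arrays, which gave 10469 genes of 18852 named on the array. Differences were tested with limma in 1 fit of the 5 groups and called at an adjusted p under 0.05 (Benjamini-Hochberg over the 10469 genes). The number of detected probes per array ranged from 14077 to 15764, and the signal at the 95th percentile was 22.3 to 36.9 times that at the 5th. Between arrays of 1 group, the standard deviation of the log2 differences over genes was 0.254 to 0.319 (10 pairs), against 0.352 to 0.715 between groups (56 pairs). Of 6 epithelial markers, EPCAM, KRT8, KRT19, CLDN4 and MUC1 were measured, with a summed signal between 47686 and 49451 at 0 h and between 43387 and 45852 at 72 h. Their sum was 48043 to 48591 at 12 h, 48664 to 56420 at 24 h and 47194 to 48434 at 48 h. Taken singly, MUC1 was called lower at 12 h (-0.35, limma adjusted p = 0.038), and no other change of these epithelial genes against 0 h was called. Of 16 fibroblast, endothelial and leukocyte markers, 4 passed the detection filter, and the summed signal of each type stayed under 100 on every array. The fibroblast gene COL1A1 was lower after MPA (log2 fold change -1.14 in the mean of the 4 times, signal 71.6 to 90.5 at 0 h and at most 26.2 at 72 h), while DCN, VWF and PTPRC did not pass the filter. The summed signal of the leukocyte genes CD14 and ITGAM was 32.4 to 55.9 at 0 h, 20.9 to 21.7 at 12 h and 55.5 to 79.4 at 72 h. CD14 was lower at 12 h (-0.95, adjusted p = 0.00043) and not called at 72 h (0.25, adjusted p = 0.20), where ITGAM was not called either (0.50, adjusted p = 0.14). The part of other cell types in the results was not tested.

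BMPR2, which forms the receptor with a type I partner, fell quickly and then recovered in part. Its signal was 11.71, 11.59, 11.59 and 11.79 on the 4 arrays at 0 h. It was 10.19 and 9.79 (12 h), 10.04 and 10.19 (24 h), 10.15 and 10.54 (48 h), and 10.94 and 10.67 (72 h). All 8 treated arrays lay below the 0 h range, and the 72 h arrays lay above those of the other treated times. The log2 fold change was -1.68 at 12 h (standard error 0.15, limma adjusted p = 7.4e-06), -1.55 at 24 h, -1.33 at 48 h and -0.86 at 72 h (adjusted p = 0.00066). No step between neighbouring times passed the test (adjusted p = 0.71, 0.44 and 0.23). Over the span from 12 to 72 h, a comparison added after the values were seen, BMPR2 rose by 0.82 (standard error 0.17, limma adjusted p = 0.0039). With median scaling in place of quantile normalization this rise was 0.44 and was not called (adjusted p = 0.17).

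The other BMPR2 probe was also lowest at 12 h and, among the treated times, highest at 72 h. It read 11.61, 11.57, 11.15 and 11.32 at 0 h, 9.63 and 9.50 (12 h), 9.53 and 9.83 (24 h), 9.89 and 10.28 (48 h), and 10.83 and 10.59 (72 h). In a fit of all 13772 probes that passed the filter, its log2 fold change was -1.85 at 12 h and -0.71 at 72 h (limma adjusted p = 0.0052). Its rise from 12 to 72 h was 1.15 (adjusted p = 0.0011). Over the 12 arrays, which share 5 groups, the correlation between the probes was r = 0.976, given as a description.

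SMAD6, an inhibitory SMAD, fell furthest of the 6 genes in the mean of the 4 times (-1.70, against -1.36 for BMPR2). With the log2 values deposited by the authors BMPR2 fell further (-1.33, against -1.29 for SMAD6), and so it did without background correction (-1.29 against -1.19). The signal of SMAD6 was 8.74, 8.77, 8.54 and 8.56 at 0 h. It was 7.60 and 7.51 (12 h), 6.98 and 7.06 (24 h), 6.56 and 6.76 (48 h), and 6.60 and 6.57 (72 h). The groups of 0, 12 and 24 h did not overlap with one another, while those of 48 and 72 h overlapped. Against 0 h, the log2 fold change was -1.09 at 12 h (standard error 0.12, limma adjusted p = 2.2e-05), -1.63 at 24 h, -1.99 at 48 h and -2.07 at 72 h (adjusted p = 8.1e-08). Before any normalization the bead intensity of this probe went from 632.5 on the brightest array at 0 h to 143.7 on the dimmest at 72 h. Its change at 72 h was -1.40 without background correction, -1.53 with the deposited log2 values and -1.75 with an offset of 50, and ID3 then lay lower (-1.69, -1.75 and -1.76). In the values used here, SMAD6 at 72 h ranked 32 from the lowest of the 10469 genes. The step from 12 to 24 h was -0.54 (adjusted p = 0.031), while those to 48 h (-0.36, adjusted p = 0.099) and to 72 h (-0.07, adjusted p = 0.86) were not called. The step to 24 h was lost when any 1 array of 12 or 24 h was left out (adjusted p between 0.10 and 0.16), with the deposited log2 values (0.051) and without background correction (0.061).

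SMAD5, which carries the signal from the receptor, moved the other way and by less. Its signal was 10.50, 10.03, 10.13 and 10.03 at 0 h, 10.83 and 10.54 (12 h), 10.79 and 10.48 (24 h), 10.86 and 10.59 (48 h), and 10.52 and 10.91 (72 h). One array of 24 h lay within the 0 h range, and the other 7 treated arrays lay above it. Its log2 fold change against 0 h was 0.51 at 12 h (adjusted p = 0.037), 0.46 at 24 h (adjusted p = 0.05001, not called), 0.55 at 48 h (adjusted p = 0.021) and 0.54 at 72 h (adjusted p = 0.025). Under median scaling, which lowers the median of all genes, the rise was 0.29 in the mean of the 4 times and was not called (adjusted p = 0.13). A second SMAD5 probe, which was detected on 10 of the 12 arrays, read 6.30, 6.17, 6.0 and 5.46 at 0 h, 5.56 and 6.16 (12 h), 5.77 and 6.12 (24 h), 6.56 and 6.45 (48 h), and 7.18 and 6.94 (72 h). Its log2 fold change was -0.13 at 12 h (adjusted p = 0.71) and 1.08 at 72 h (adjusted p = 0.0027), so that only the brightest probe was called higher at 12 h and both were at 72 h. With single arrays left out, the call at 12 h was lost without replicate 2, 3 or 4 of 0 h or either array of 12 h (adjusted p between 0.058 and 0.26). The call at 48 h was lost without the first array of 48 h (adjusted p = 0.18), and that at 72 h without replicate 2 or 4 of 0 h or replicate 2 of 72 h (adjusted p = 0.056, 0.053 and 0.26). At 24 h SMAD5 was called without the first array of 0 h (adjusted p = 0.015) or either array of 72 h (adjusted p = 0.045 for each), and with the deposited log2 values (adjusted p = 0.016).

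**Figure D1:**
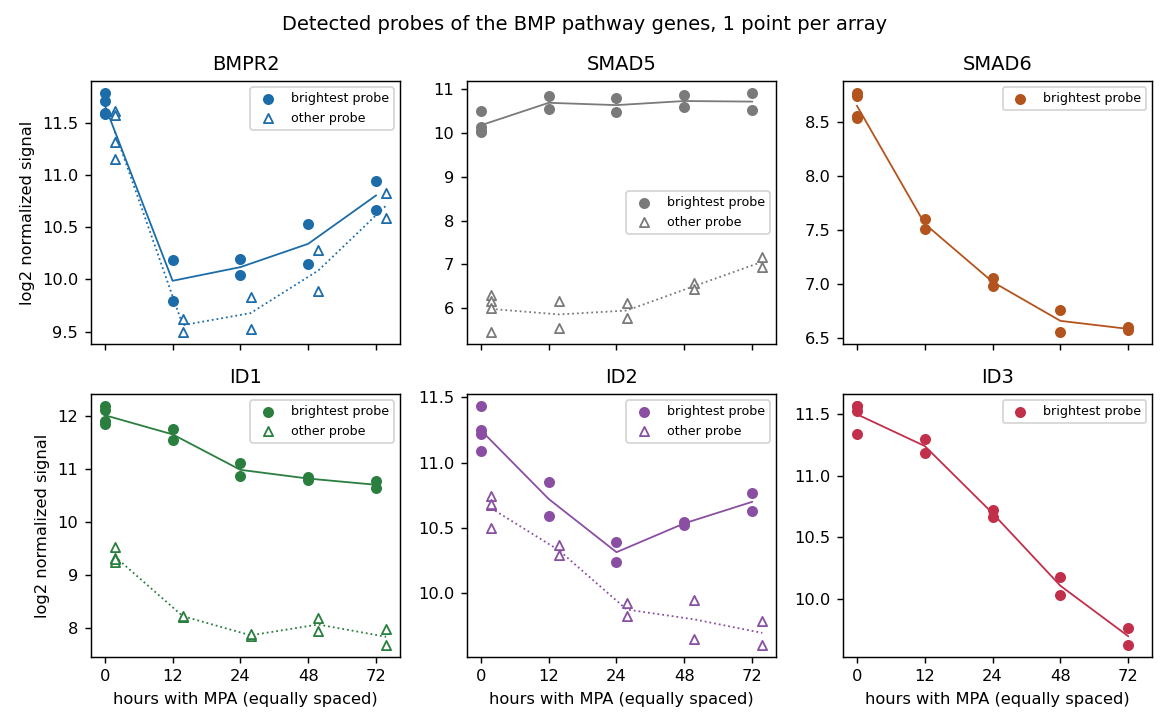
Log2 normalized signal of each detected probe against hours with MPA (times equally spaced), 1 point per array, with lines through the group means. Filled circles are the brightest probe of a gene and open triangles the other probe (moved slightly to the right), which for SMAD5 was not detected on 1 array of 0 h and 1 of 12 h. BMPR2 was lowest at 12 h, while SMAD6, ID1 and ID3 were lowest at 72 h.

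ID1, an inhibitor of E proteins and a much used readout of BMP signals, fell mainly between 12 and 24 h by its brightest probe. That probe read 11.91, 11.85, 12.19 and 12.11 at 0 h, 11.55 and 11.76 (12 h), 10.86 and 11.11 (24 h), 10.85 and 10.79 (48 h), and 10.63 and 10.77 (72 h). The 12 h arrays lay below the 0 h range, and the later arrays lay below those of 12 h. On the log2 scale, the change was -0.36 at 12 h (standard error 0.13, adjusted p = 0.052, not called), -1.03 at 24 h (adjusted p = 5.9e-05), -1.20 at 48 h and -1.31 at 72 h (limma adjusted p = 1e-05). The step from 12 to 24 h was -0.67 (adjusted p = 0.021), and the later steps were not called (-0.16 and -0.12, adjusted p = 0.52 and 0.79). At 12 h it was called without the second array of 0 h (-0.42, adjusted p = 0.041), and the step to 24 h was lost without the second array of 12 h or the first of 24 h (adjusted p = 0.16 for each).

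The other ID1 probe was lower at 12 h already. It read 9.25, 9.31, 9.53 and 9.30 at 0 h, 8.22 and 8.23 (12 h), 7.85 and 7.88 (24 h), 7.95 and 8.18 (48 h), and 7.99 and 7.68 (72 h). All 8 treated arrays lay below the 0 h range. Its log2 fold change was -1.12 at 12 h (adjusted p = 6.3e-05 in the fit of all probes) and -1.51 at 72 h. With the mean of both probes ID1 was called at 12 h, at -0.74 (adjusted p = 0.00036). The brightest probe was itself called at 12 h with the deposited log2 values (adjusted p = 0.026), without background correction (0.019), with an offset of 50 (0.033), over genes detected on all 12 arrays (0.039) and with an intensity trend in the fit (0.021).

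ID2, of the same family, was lower at every time. Its brightest probe read 11.43, 11.22, 11.25 and 11.09 at 0 h, 10.85 and 10.59 (12 h), 10.24 and 10.39 (24 h), 10.55 and 10.52 (48 h), and 10.77 and 10.63 (72 h). All 8 treated arrays were below the 0 h range. Relative to 0 h, the log2 fold change was -0.53 at 12 h (standard error 0.13, limma adjusted p = 0.0067), -0.93 at 24 h (adjusted p = 9e-05), -0.71 at 48 h and -0.55 at 72 h (adjusted p = 0.0041). Without the second array of 12 h the change at 12 h was -0.39 and was not called (adjusted p = 0.098). None of the steps between neighbouring times was called, and from 12 to 72 h the difference was -0.02 (95% confidence interval -0.34 to 0.30).

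The other ID2 probe did not turn back after 24 h. Its values were 10.74, 10.68, 10.50 and 10.68 at 0 h, 10.37 and 10.29 (12 h), 9.93 and 9.82 (24 h), 9.95 and 9.65 (48 h), and 9.60 and 9.79 (72 h). Its log2 fold change was -0.32 at 12 h (adjusted p = 0.070, not called) and -0.96 at 72 h (adjusted p = 0.00011), and it fell by 0.63 from 12 to 72 h (adjusted p = 0.0067). Both probes of ID2 were called lower than 0 h from 24 h on, and only the dimmer one was called lower at 72 h than at 12 h. The difference between the probes was not tested.

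ID3, the third inhibitor of E proteins, had the smallest change at 12 h among the brightest probes of the genes tested here. Its single probe read 11.57, 11.53, 11.56 and 11.34 at 0 h, 11.30 and 11.19 (12 h), 10.66 and 10.73 (24 h), 10.03 and 10.18 (48 h), and 9.63 and 9.77 (72 h). No group overlapped with another. The log2 fold change was -0.26 at 12 h (standard error 0.11, adjusted p = 0.098, not called), -0.80 at 24 h (adjusted p = 0.00012), -1.39 at 48 h and -1.80 at 72 h (limma adjusted p = 1.9e-07). At 72 h it ranked 56 from the lowest of the 10469 genes. The steps from 12 to 24 h (-0.55, adjusted p = 0.026) and from 24 to 48 h (-0.59, adjusted p = 0.015) were called, and the last step was not (-0.41, adjusted p = 0.15). Without any 1 array of 12 or 24 h, the step between these times was lost (adjusted p between 0.085 and 0.14).

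The remaining genes gave no signal above background. BMP4, a ligand, had 1 probe with bead intensities between 72.9 and 92 and a lowest detection p of 0.45. ID4 had 1 probe with intensities between 69.4 and 93.2 and a lowest detection p of 0.40. SMAD1, which shares the role of SMAD5, had 2 probes with intensities between 69.1 and 101.3 and lowest detection p values of 0.14 and 0.15. A further SMAD5 probe was also not detected on any array. Their levels and changes could not be read, and the lack of signal in these probes does not show that the transcripts are absent.

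**Figure D2:**
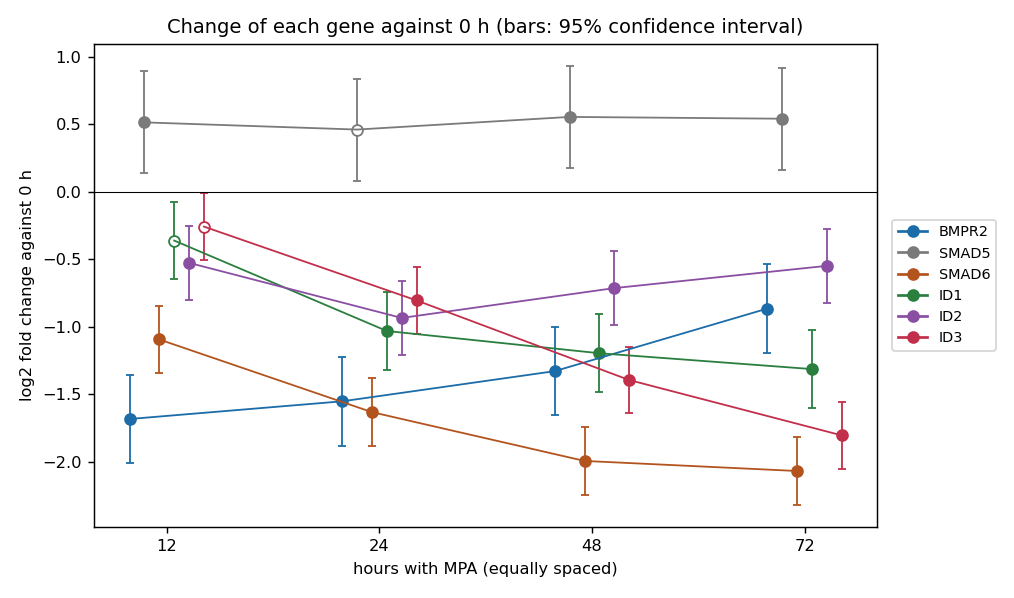
Log2 fold change of the 6 genes against 0 h at 12, 24, 48 and 72 h of MPA (times equally spaced), from the brightest probe. Bars are 95% confidence intervals of the limma fit, filled points passed an adjusted p under 0.05, and open points did not. BMPR2 moved from -1.68 to -0.86 between 12 and 72 h, while ID3 moved from -0.26 to -1.80.

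In number, 3 of the 6 genes were lower and 1 was higher at 12 h, beside 17.9% of all genes called lower and 16.4% called higher. At 24 h, 5 were lower and 0 higher (all genes 21.2% and 20.3%). At 48 h, 5 were lower and 1 was higher (22.7% and 20.8%), and at 72 h the counts were again 5 and 1 (21.4% and 20.9%). In the mean of the 4 times, 5 of 6 were lower and SMAD5 was higher, against 27.2% and 24.5% of all genes. The median log2 fold change of the 6 genes in that mean was -1.02, and that of all genes -0.03. Of the 10 probes, 8 were lower and 1 was higher in that mean (25.8% and 22.9% of all 13772 probes). These comparisons share the same 4 arrays of 0 h.

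Between neighbouring times, SMAD6, ID1 and ID3 were lower at 24 h than at 12 h, where 2.31% of all genes were called lower. Their calls were lost without the second array of 12 h or the first of 24 h, which leaves 1 array in that group. The changes of SMAD6, ID1 and ID3 were -0.58, -0.57 and -0.60 without the former, and -0.50, -0.54 and -0.52 without the latter. The share of all genes called in those fits is not given here. Only ID3 was called from 24 to 48 h (6.51% of all genes lower). That call was lost without the first or second array of 24 h or the first of 48 h (adjusted p = 0.066, 0.10 and 0.088). From 48 to 72 h none of the 6 was called by limma, where 2.02% of all genes were called in either direction. BMPR2 and ID3 had an unadjusted p under 0.05 in that step, 2 of 6 beside 15.2% of all genes. From 12 to 72 h, SMAD6 (-0.97, adjusted p = 0.00024), ID1 (-0.95, adjusted p = 0.00071) and ID3 (-1.55, adjusted p = 9.2e-06) were called lower, beside 15.9% of all genes. BMPR2 was called higher there, beside 17.2% of all genes. The other ID1 probe had -0.39 over this span and was not called (adjusted p = 0.066), nor was its step from 12 to 24 h (-0.36, adjusted p = 0.19). The shortfall of BMPR2 against 0 h shrank over the span in which those of SMAD6 and ID3, and of ID1 by its brightest probe, grew. The rise of BMPR2 was not called under median scaling.

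The order of the levels over time differed between the genes. For SMAD6, ID3 and the brightest probe of ID1 the means ran from 0 h down through 12, 24 and 48 to 72 h, while the other ID1 probe went up by 0.20 from 24 to 48 h (adjusted p = 0.43, not called). For BMPR2 the order from the highest was 0, 72, 48, 24 and 12 h, with no called difference between neighbours among the treated times, and under median scaling 24 h lay 0.02 below 12 h. For ID2 it was 0, 12, 72, 48 and 24 h by the brightest probe, and 0, 12, 24, 48 and 72 h by the other. Correlations over the 12 arrays were taken from the brightest probe of each gene. SMAD6 correlated with ID1 at r = 0.941 and with ID3 at r = 0.915. BMPR2 correlated with ID2 at r = 0.874 and with ID3 at r = 0.425, and the other ID2 probe was not set against BMPR2. These values describe arrays that share 5 groups.

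The rest of the pathway was read from a list of 68 genes that includes these 10, ordered by role. Of the 68, 33 were tested, 32 had probes that did not pass the detection filter, and 3 had no named probe. Outside the 10 genes, 27 were tested, and in the mean of the 4 times 4 were higher, 9 were lower and 14 were not called, beside 24.5% of all genes higher and 27.2% lower. The target gene ATOH8 and the E protein TCF4 passed the detection filter only through the arrays on which they were high (0 h for ATOH8, MPA for TCF4), and without them 3 of 25 were higher and 8 were lower. The median log2 fold change of these 27 was -0.13, against -0.03 for all genes. Without ATOH8, 4 of 5 target genes were lower and 0 higher, with a median of -0.68, and the 3 ID genes are among them. Of 9 inhibitors inside the cell, 3 were lower, SMAD6 among them, and 2 were higher. Of 3 receptors tested, BMPR2 and ACVR1 were lower. The 4 extracellular antagonists included 2 called lower. The shares of all genes given above are the background of these role counts too.

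BMP2, a ligand of the same receptors, was higher. Its signal was 7.71, 7.39, 7.44 and 7.61 at 0 h, 8.21 and 7.85 (12 h), 8.18 and 8.29 (24 h), 8.68 and 8.64 (48 h), and 8.15 and 8.05 (72 h). All 8 treated arrays lay above the 0 h range, and those of 48 h were the highest. Compared with 0 h, its log2 fold change was 0.72 in the mean of the 4 times (standard error 0.09, limma adjusted p = 4.3e-05) and 1.12 at 48 h. ACVR1, another type I receptor, had a log2 fold change of -0.41 in that mean (adjusted p = 0.0025).

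Among the inhibitors in the cell, SMURF1, a ubiquitin ligase that marks SMAD1 and SMAD5 for breakdown, was lower. It read 7.22, 7.34, 7.13 and 7.45 at 0 h and between 6.42 and 6.81 on the 8 treated arrays, with no overlap. Its log2 fold change was -0.65 (standard error 0.09, limma adjusted p = 8.8e-05). SKI, a corepressor that binds SMAD complexes, was higher, at 7.91, 7.47, 7.81 and 7.79 at 0 h against 8.69 and 8.81 at 12 h and 8.96 and 8.84 at 24 h. At 72 h its arrays read 8.43 and 7.89, and the second lay within the 0 h range. The log2 fold change of SKI was 1.16 at 24 h (adjusted p = 0.0002) and 0.41 at 72 h (adjusted p = 0.073, not called). SMAD7, the other inhibitory SMAD, had -0.38 in the mean of the 4 times (adjusted p = 0.0024), against -1.70 for SMAD6. FST, which binds activins and BMPs outside the cell, had -0.48 (adjusted p = 0.0018). SMURF1, SMAD7 and FST have 2 named probes each, and only the brightest that passed the filter is given here.

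**Figure D3:**
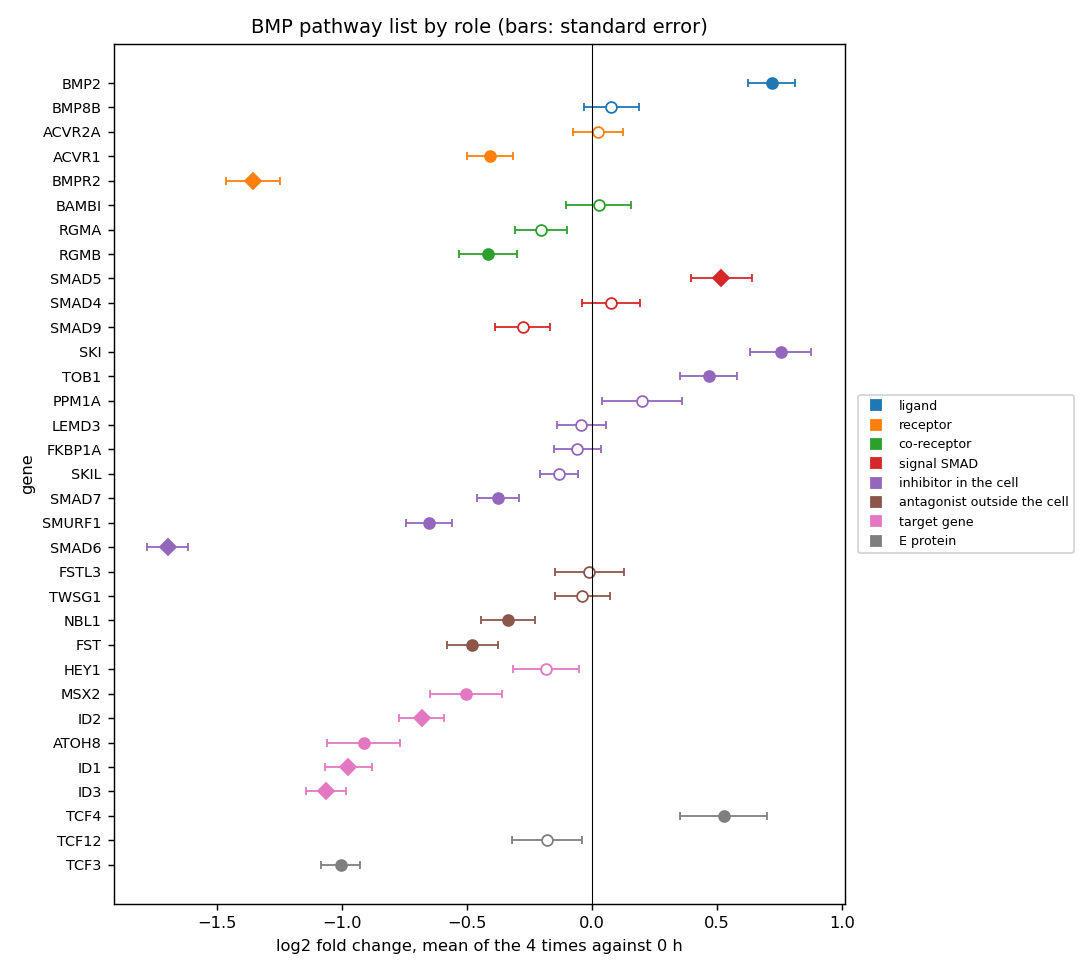
Log2 fold change of the 33 tested genes of the BMP pathway list in the mean of the 4 times against 0 h, grouped by role, with bars of 1 standard error. Diamonds are BMPR2, SMAD5, SMAD6, ID1, ID2 and ID3, circles the other genes, and filled symbols passed an adjusted p under 0.05. ATOH8 and TCF4 passed the detection filter only through the arrays on which they were high, so their filled symbols are not read as calls. SMAD6 at -1.70 and BMPR2 at -1.36 lie lowest, and SKI at 0.76 and BMP2 at 0.72 highest.

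TCF3, the E protein that ID proteins bind, was also lower. It read 9.43, 9.42, 9.36 and 9.46 at 0 h, 7.93 and 8.07 (12 h), 8.26 and 8.13 (24 h), 8.53 and 8.50 (48 h), and 9.06 and 8.81 (72 h). The lowest values were those of 12 h, and the treated arrays nearest to 0 h were those of 72 h. Its log2 fold change was -1.41 at 12 h (standard error 0.11, adjusted p = 2.5e-06) and -0.48 at 72 h (adjusted p = 0.0039). TCF4, another E protein, was detected on 0 of 4 arrays at 0 h, 0 of 2 at 12 h, 1 of 2 at 24 h, 2 of 2 at 48 h and 1 of 2 at 72 h. It was at least 1.5-fold higher at 48 h than at 0 h, with the 0 h arrays set at their lowest detected signal. At 72 h this bound was 1.13, and at 24 h no fold could be given. No test is given for TCF4 because it was detected only after MPA. MSX2, a homeobox target gene, had a log2 fold change of -0.51 in the mean of the 4 times (adjusted p = 0.010), and its arrays at 12 h, 7.94 and 7.24, lay on either side of the lowest value at 0 h, 7.58. ATOH8, a helix-loop-helix target gene, was detected on 2 of 4 arrays at 0 h and on none of the 8 treated arrays, so no test is given for it. The bound on its fold was 1.05 at 24 h, and at the other times no fold could be given.

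**Figure D4:**
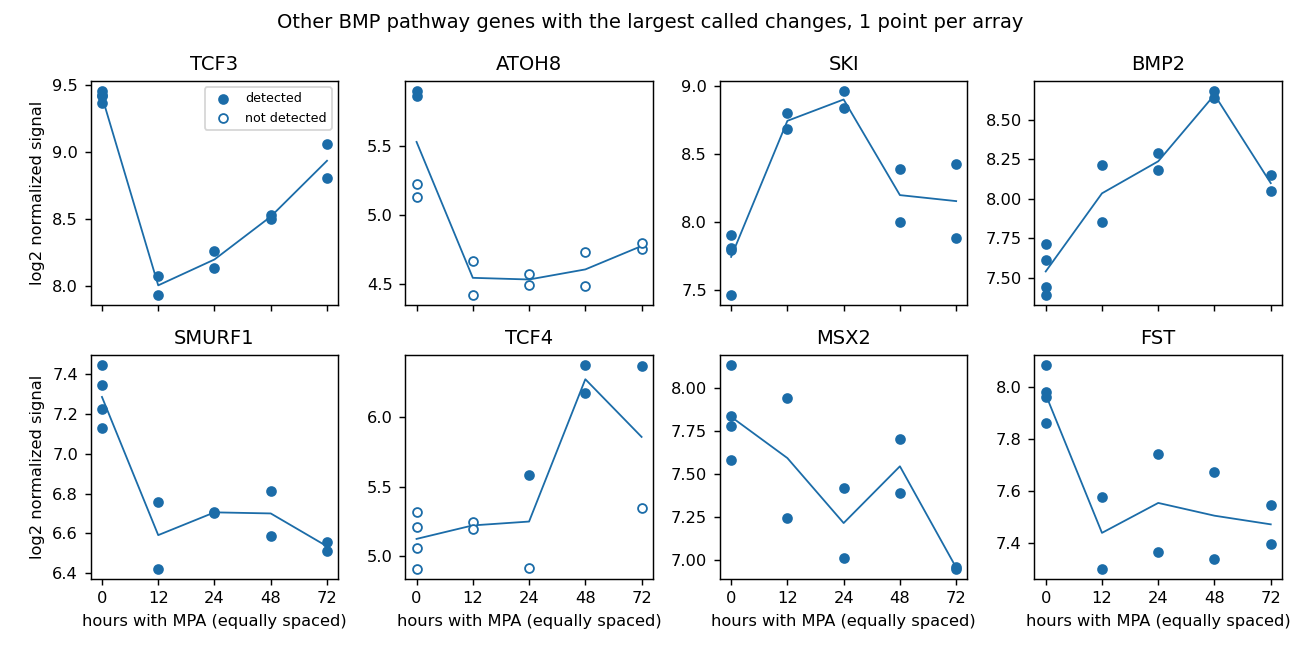
Log2 normalized signal of the 8 other genes of the pathway list with the largest called changes, against hours with MPA (times equally spaced), 1 point per array, with lines through the group means. Open points are arrays on which the probe was not detected. ATOH8 and TCF4 passed the detection filter only through the arrays on which they were high, so their calls are not read. TCF3 fell to between 7.93 and 8.07 at 12 h, and BMP2 peaked at 48 h.

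Among all 10469 genes, those whose signal followed SMAD6 most closely over the 12 arrays were SNCAIP (r = 0.992), which encodes a partner of alpha-synuclein, C9orf152 (r = 0.991) and REG1A (r = 0.988), a secreted protein of the regenerating family. For ID3 they were PAGE4 (r = 0.994), a cancer/testis antigen, SPP1 (r = 0.978), which encodes osteopontin, and SLCO2A1 (r = 0.978), a prostaglandin transporter. For BMPR2 they were PHTF1 (r = 0.982), MERTK (r = 0.978), a receptor tyrosine kinase, and FAF1 (r = 0.973). For ID1 they were PRKAR1B (r = 0.977), a regulatory subunit of protein kinase A, HSP90B1 (r = 0.976), a chaperone of the endoplasmic reticulum, and CENPV (r = 0.975). These Pearson correlations were the highest out of all genes and are given as a description only.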

How the data were processed

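RNA of AGS cells was hybridised to 12 Illumina HumanHT-12 arrays, 4 at 0 h and 2 at each later time. The authors deposited, as intensity values, the mean signal of the beads of each probe without normalization. The detection score deposited beside each is 1 minus the detection p. The log2 values deposited by the authors had been preprocessed with lumi, with version and settings not given in the sources used here, and they served as an alternative.

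Intensities were corrected by normexp with negative controls inferred from the detection p (offset 16), taken to log2 and quantile normalized with limma 3.58.1 and statmod 1.5.0 in R 4.3.3. Kept were probes naming 1 gene (28098 of 48803) and detected (p under 0.01) on 2 arrays or more. The platform annotation belongs to version 3 of this array, and the study names version 4. Where the annotation held the gene identifier, current symbols replaced old ones (28059 probes). The 5 groups were fitted without covariates, with Benjamini-Hochberg adjusted p-values. The pipeline was checked on simulated data. Promoters were read from RefSeq (GRCh38.p14).

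The members, the pathway list and the comparisons were chosen with earlier results of these data known. Named genes are the 10 members, up to 8 other pathway genes with the largest called changes in the mean of the 4 times, and, for the 4 members with the largest moderated F, the 3 genes with the highest correlation. ACVR1 and SMAD7 were added after their values were seen. Replicate numbers were not taken as pairs. Correlations of deviations between arrays with the same number ranged from -0.19 to 0.27, and 3 of 20 were over 0.1. Those 3 (0.27, 0.19 and 0.11) were all between 0 h and a treated time. Between 2 treated times, with 2 arrays each, replicates 1 and 2 must give the same value. The 20 values are therefore not separate checks, and they do not settle whether the arrays were paired. Alternatives were 11 other settings and each of the 12 arrays left out in turn. The number of arrays limits the precision.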

Additional observations from a re-analysis of the deposited data

How the results depend on the processing

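No called change of a member turned its direction under an alternative, while 18 values called in neither setting did, 3 of them under median scaling (BMPR2 from 12 to 24 h, and SMAD5 from 24 to 48 h and from 12 to 72 h, the last from 0.03 to -0.34). Of the comparisons of a gene's change with its value under another setting, 1157 kept their status as called or not, 63 lost the call and 16 gained it. Some of the 63 lost it only because 1 setting also asked for a 2-fold change. Leaving out an array of a group not compared cannot move the fold change itself. Median scaling lowered the median log2 fold change of all genes to -0.14 at 24 h, -0.31 at 48 h, -0.32 at 72 h and -0.19 in the mean of the 4 times. It changed the share of higher genes among those called from 47.4% to 27.8% in that mean, and from 49% to 37.7% at 24 h, 47.7% to 20.8% at 48 h and 49.5% to 19.2% at 72 h. Under it 2 of the 6 members were called at 12 h (21% of all genes) and 1 from 12 to 24 h (3.12%). SMAD5 was called at no time under it, though it stood 0.49 above the median of all genes in the mean of the 4 times. When only the groups compared were fitted, 0 members were called from 12 to 24 h (4.1% of all genes) and 0 from 24 to 48 h (6.22%). With a 2-fold minimum, 2 members were called at 12 h (6.03% of all genes) and 3 at 24 h (9.56%). At 72 h 3 were called (8.38%), and in the mean of the 4 times 3 (6.45%). From 12 to 72 h 1 was called (6.76%), with 0 from 12 to 24 h (1.7%) and 0 from 24 to 48 h (1.8%). In the mean of the 4 times, 5 of the 10 probes were called (6.18% of all probes). These shares count calls in either direction.

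With single arrays left out, the members called ranged from 2 to 4 at 12 h, 5 to 6 at 24, 48 and 72 h, 0 to 3 from 12 to 24 h and 0 to 1 from 24 to 48 h, stayed at 6 in the mean of the 4 times and at 4 from 12 to 72 h, and the probes called ranged from 9 to 10. With all 12 arrays, 34.3% of all genes were called in either direction at 12 h. At 24, 48 and 72 h the shares were 41.5%, 43.5% and 42.3%. In the mean of the 4 times it was 51.8%, and from 12 to 72 h 33.1%. For the steps from 12 to 24 h and from 24 to 48 h the shares were 6.89% and 11%. The shares with single arrays left out are not given here. The lowest count of members at 12 h came without the second array of that time, which ended the calls of ID2 and SMAD5. With the replicate number as a block, 3 members were called at 12 h (27.8% of all genes in either direction). At 24, 48 and 72 h 5 were called (34.1%, 34.2% and 33.7%), and 5 in the mean of the 4 times (39%). Under the block 8 probes were called in that mean (35.9% of all probes). The block ended each call of SMAD5 (0.43 in the mean of the 4 times, adjusted p = 0.055) and no other call of a member. Replicate numbers 3 and 4 occur only at 0 h, so under the block those arrays did not enter the differences from 0 h. The block thus also left fewer arrays at 0 h, and its effect is not that of pairing alone. The causes were not tested. BMP4, SMAD1 and ID4 are limited by signal near background.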

Other observations

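Some pathway genes outside the 10 moved between 12 and 72 h in ways that the mean of the 4 times hides; they were picked after their values were seen. Of the 27 tested, 6 rose and 4 fell from 12 to 72 h, beside 17.2% of all genes higher and 15.9% lower. ACVR2A, a type II receptor for activins and BMPs, went from a log2 fold change against 0 h of -0.61 at 12 h (adjusted p = 0.0056) to 0.68 at 72 h (adjusted p = 0.0022), a difference of 1.28 (limma adjusted p = 0.00015). BAMBI, a decoy receptor without a kinase domain, rose by 0.96 over the same span (adjusted p = 0.0051), and by 0.57 under median scaling, which was not called (adjusted p = 0.079). FSTL3, which binds activins, fell by 1.56 (adjusted p = 0.00036), from 0.60 above 0 h at 12 h to 0.96 below it at 72 h. SKIL, a corepressor related to SKI, fell by 1.06 (adjusted p = 9.3e-05). ACVR2A and SKIL have 2 named probes each, and only the brightest that passed the filter is given here.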
